A study of Mus musculus with 4 samples.

Results

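Collagen crosslinking and folding enzymes were followed in Pdgfra-lineage cells of the newborn mouse forebrain with and without the MN1:BEND2 fusion gene. The set held 10 genes, namely Lox, Loxl1, Loxl2, Loxl3, Serpinh1, Plod1, Plod2, Plod3, P4ha1 and P4ha2. Each was taken as the row of the deposited table that carries its symbol, out of 54348 rows, and no member symbol stood on more than 1 row. The only measured value in that rule, a row chosen by highest mean TPM where a symbol repeats, was thus never needed. The genes themselves were proposed with the fusion and control values of these libraries known, so their tests are a description and not independent evidence. The fusion group was PdgfraCreER;MN1:BEND2;AI14 and the control group PdgfraCreER;AI14, with 2 RNA-seq libraries each. Mice of both groups thus carried PdgfraCreER, a tamoxifen-activated recombinase under control of Pdgfra, and AI14, a reporter that makes tdTomato after recombination. Pups were given tamoxifen at P0 and P1 and killed at P4, counted in days after birth. The pial membranes were removed, and the sort then kept living cells that carried tdTomato. Whatever cell carries a recombined reporter enters the sort, so the profile covers a lineage and not 1 cell type. Forebrains of individual mice were dissociated, but the labels do not tie a library to a mouse, and the p-values may therefore measure technical spread.

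Collagen chains are modified and folded in the endoplasmic reticulum (ER) before they leave the cell. Prolyl 4-hydroxylases hydroxylate proline, which stabilizes the triple helix. Lysyl hydroxylases of the Plod genes hydroxylate lysine, and the chaperone encoded by Serpinh1, known as Hsp47, binds the folded helix. Outside the cell, copper-dependent lysyl oxidases of the Lox genes oxidize lysine and hydroxylysine, which starts the covalent crosslinks between molecules. In the brain, fibrous collagen is largely a product of meningeal and vascular cells, and oligodendrocyte precursors make little of it.

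Promoter sequence was at hand for 5 of the 10 members in the RefSeq table (GRCm38.p6). Shown here are the 250 bases before the start of Serpinh1 and of P4ha1, the folding genes with the clearest changes in opposite directions. Capitals mark ACGTG on either strand (CACGT when read on the other), the core of the element bound by hypoxia-inducible factors, since P4ha1 is a known hypoxia target.
Serpinh1, chr7:99353240-99353489, minus strand: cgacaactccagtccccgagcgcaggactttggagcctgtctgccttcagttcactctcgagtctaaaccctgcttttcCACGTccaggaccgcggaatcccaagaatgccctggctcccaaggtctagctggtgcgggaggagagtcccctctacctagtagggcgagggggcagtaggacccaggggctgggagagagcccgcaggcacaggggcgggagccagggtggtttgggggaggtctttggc
P4ha1, chr10:59323046-59323295, plus strand: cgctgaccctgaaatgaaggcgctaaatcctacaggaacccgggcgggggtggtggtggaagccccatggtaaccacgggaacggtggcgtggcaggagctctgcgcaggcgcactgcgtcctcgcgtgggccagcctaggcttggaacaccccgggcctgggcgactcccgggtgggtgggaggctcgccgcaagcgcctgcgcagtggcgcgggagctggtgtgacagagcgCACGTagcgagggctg
The core lay at position -171 from the start of Serpinh1 and at -16 from that of P4ha1. It was found in 4 of the 5 member windows, Plod3, P4ha2, P4ha1 and Serpinh1, and in 16.6% of 32851 windows of the same length. GC content was 55.6% to 70% in the 5 member windows, against a median of 52.4% over all windows. The shares over all windows given here are not matched for GC content. A GC box (GGGCGG, both strands) was present in the Serpinh1, P4ha1, Plod1 and P4ha2 windows and in 32.7% of all windows. A pair of heat shock element units (GAANNTTC) was in none of the 5 windows and in 6.69% of all. Member genes that differed in opposite directions between the groups thus shared the same letters, and a match is only a description of the sequence.

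Levels are in TPM, a measure of transcripts per transcript length that sums to the same total in every library, so read depth is unknown. Differences were tested on log2(TPM + 1) with limma over the 12871 genes that reached 1 TPM in 2 or more libraries, and adjusted p is the Benjamini-Hochberg value over all of them. A log2 change is fusion minus control on that scale. The libraries of the groups stood apart before any member was read. The share of TPM from mitochondrially encoded genes was 48.7% and 26.2% in fusion replicates 1 and 2, against 10.1% and 7.30% in control replicates 1 and 2. The fusion libraries had 9050 and 10017 genes that reached 1 TPM, against 12772 and 13219 such genes in the control libraries. The median log2 change of all tested genes was -1.41, and changes relative to that median are given beside the changes themselves. Bend2 was listed at 3.82 and 8.72 TPM in the fusion libraries and at 0 in both control libraries. Mn1, the mouse gene of the other fusion partner, had 2.75 and 3.04 TPM in the fusion libraries, against 11.6 and 17.8 TPM in the control libraries (adjusted p = 0.0158, limma). The Y-linked gene Eif2s3y was listed at 0 in both fusion libraries and had 121 and 122 TPM in the control libraries, so sex and genotype cannot be told apart in any result. Bulk values also cannot separate fewer cells of a type from less RNA per cell.

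Of the 10 members, 8 were tested, and Loxl1 and P4ha2 were below the filter. Lox, Loxl2 and Serpinh1 were higher in the fusion libraries, and Loxl3, Plod1, Plod3 and P4ha1 were lower. Plod2 did not pass the threshold of 0.05. Over all tested genes, 56.3% were called in either direction, 4.95% as higher and 51.3% as lower, so 4 lower members are about as many as the background gives. Loxl2 and Serpinh1 entered the test only through the fusion libraries, where they are high, and had to differ for that reason. Lox reached 1 TPM in both fusion libraries and in 1 control library, so it too met the filter through the group where it is high. Loxl3 and Plod3 met it through the control libraries, with 1 fusion library at 1 TPM or more. The median log2 change of the 8 was -1.24, against -1.41 over all tested genes. For 3 of the 8 both fusion values exceeded both control values, and for 5 of the 8 both were lower, against 10.2% and 71.1% of all tested genes.

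**Figure D1:**
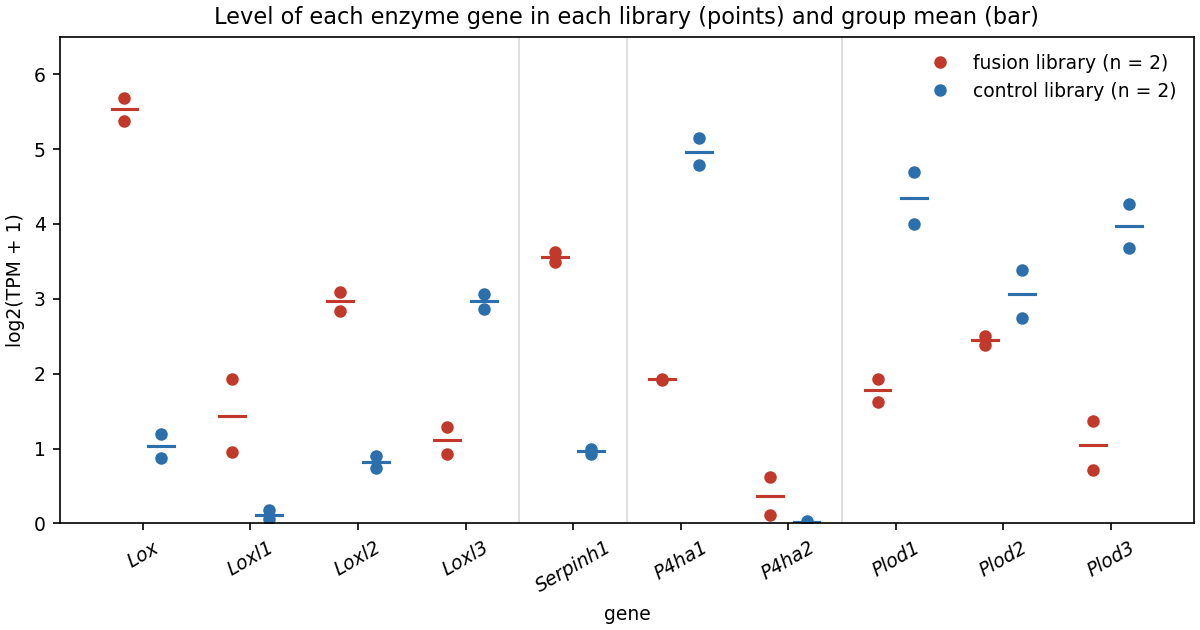
Levels of the 10 enzyme genes as log2(TPM + 1), with a point for each library, red for fusion (left) and blue for control (right), and a bar for the mean of 2 libraries on that scale. Lox, Loxl1, Loxl2, Serpinh1 and P4ha2 lie higher in both fusion libraries, and the other genes lie lower in both, and Plod2 has the closest groups of these.

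Prolyl 4-hydroxylase is a tetramer of catalytic alpha subunits, from the P4ha genes, and the beta subunit protein disulfide isomerase, from P4hb. P4ha1 (ENSMUSG00000019916.14, chromosome 10, 59323296 to 59373304, plus strand, GRCm38) had 2.77 and 2.82 TPM in the fusion libraries, against 26.5 and 34.3 TPM in the control libraries. The groups did not overlap, and the fusion libraries were nearly alike. Its mean was 2.79 ± 0.0323 TPM in the fusion and 30.4 ± 5.50 TPM in the control libraries (SD, n = 2 each), a control mean 10.9 times the fusion mean. The log2 change was -3.04 ± 0.40 (SE, adjusted p = 0.00451, limma), or -1.63 relative to the median of all genes. In rank, P4ha1 exceeded 53.1% and 45.6% of tested genes in the fusion libraries, against 70.7% and 72.5% in the control libraries. Ranks do not compare directly between the groups, since more genes reached 1 TPM in the control libraries.

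P4ha2 (ENSMUSG00000018906.14, chromosome 11, 54100095 to 54131665, plus strand), the second alpha subunit, had 0.544 and 0.0795 TPM in the fusion libraries and 0.0190 and 0 TPM in the control libraries. It was near the bottom of every library and was not tested. With no filter on low values its log2 change was 0.35 ± 0.20 (SE, adjusted p = 0.299, limma). P4ha3, the remaining alpha subunit gene, was listed at 0 in both fusion libraries and at 0 and 0.0384 TPM in the control libraries. P4ha1 therefore made up 83.6% and 97.3% of the alpha subunit TPM in the fusion libraries, against 99.9% in each control library. P4hb, which also serves in other enzymes, had 65.3 and 43.2 TPM in the fusion and 144 and 189 TPM in the control libraries (log2 change -1.62 ± 0.38, SE, adjusted p = 0.0187, limma), close to the median of all genes. That direction turned with rescaling, to 0.14 (adjusted p = 0.843, limma). Per unit of P4ha1, there were 23.6 and 15.4 units of P4hb in the fusion libraries, against 5.42 and 5.52 in the control libraries.

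The lysyl hydroxylases did not move as 1 group. Plod1 (ENSMUSG00000019055.15, chromosome 4, 147909753 to 147936767, minus strand), the enzyme that hydroxylates lysine in the helix, had 2.80 and 2.09 TPM in the fusion libraries, against 15.0 and 24.8 TPM in the control libraries. Its log2 change was -2.57 ± 0.46 (SE, adjusted p = 0.00866, limma), or -1.16 relative to the median. Plod3 (ENSMUSG00000004846.10, chromosome 5, 136987019 to 136996648, plus strand), which also adds sugars to hydroxylysine, had 0.646 and 1.59 TPM in the fusion libraries, against 11.8 and 18.2 TPM in the control libraries. Both groups were apart by more than their internal spread, with a log2 change of -2.92 ± 0.49 (SE, adjusted p = 0.00733, limma), or -1.52 relative to the median. Plod3 overlaps Znhit1 on the opposite strand over 1003 bases. Znhit1 had 16.98 and 13.5 TPM in the fusion and 172 and 161 TPM in the control libraries. Strand use in the counting is not stated, so reads of the overlap could belong to either gene.

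Plod2 (ENSMUSG00000032374.14, chromosome 9, 92542223 to 92608428, plus strand) hydroxylates lysine in the telopeptides, the end stretches where crosslinks form. It had 4.67 and 4.24 TPM in the fusion libraries, against 5.68 and 9.48 TPM in the control libraries. The groups did not overlap but lay close, and the log2 change of -0.62 ± 0.46 (SE, adjusted p = 0.291, limma) did not pass. Relative to the median of all genes Plod2 lay at 0.79, and after rescaling by median ratios it had the opposite sign, 0.89 (adjusted p = 0.212, limma). A share within the family is not altered by a single scaling factor per library. Plod2 took 57.5% and 53.6% of the summed Plod TPM in the fusion libraries, against 17.5% and 18.1% in the control libraries. Plod1 took 34.5% and 26.4% in the fusion libraries, against 46.3% and 47.3% in the control libraries. Plod3 took 7.97% and 20.0%, against 36.3% and 34.7%, in the same order of groups. The order of the 3 genes thus differed, with Plod2 first in both fusion libraries and last in both control libraries. Their sum was 8.11 and 7.91 TPM in the fusion libraries and 32.5 and 52.4 TPM in the control libraries.

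**Figure D2:**
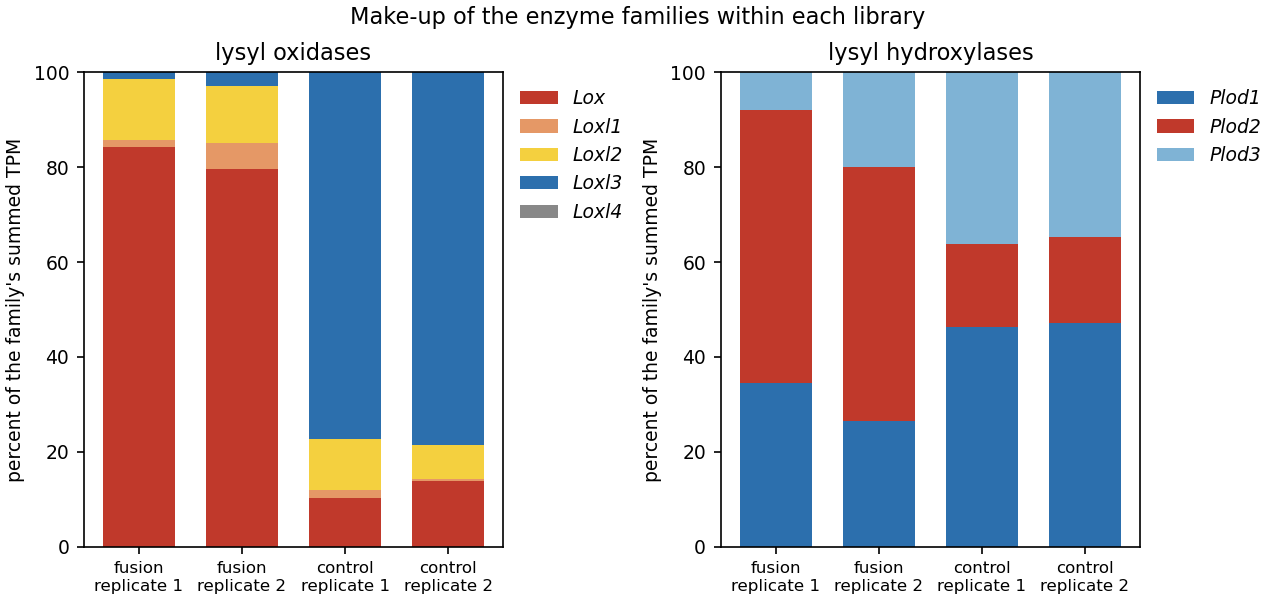
Share of each gene in the summed TPM of its family, as percent, in each fusion and control library. Lox fills 84.3% and 79.6% of the lysyl oxidase bar in the fusion libraries and Loxl3 fills 77.4% and 78.6% in the control libraries, while Plod2 is the largest lysyl hydroxylase segment only in the fusion libraries.

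Serpinh1 was the folding gene that rose. Serpinh1 (ENSMUSG00000070436.12, chromosome 7, 99345376 to 99353239, minus strand) had 10.3 and 11.4 TPM in the fusion libraries, against 0.991 and 0.905 TPM in the control libraries. The replicates of each group were nearly alike and the groups were far apart, with means of 10.8 ± 0.786 TPM in the fusion and 0.948 ± 0.0607 TPM in the control libraries (SD, n = 2 each), a ratio of 11.4. The log2 change was 2.60 ± 0.41 (SE, adjusted p = 0.00619, limma), or 4.01 relative to the median. Serpinh1 exceeded 78.0% and 73.8% of tested genes in the fusion libraries, against 5.15% and 4.16% in the control libraries. A level near 1 TPM ranks lower in a control library, so this gap is partly set by the filter. Loxl3, at 0.907 TPM in fusion replicate 1, exceeded 30.7% of tested genes there. Set against P4ha1 within a library, Serpinh1 was 3.71 and 4.05 times as high in the fusion libraries, and P4ha1 was 26.8 and 37.9 times as high as Serpinh1 in the control libraries. The balance of these ER genes was thus inverted in both fusion libraries. Whether the ACGTG core shown above bears on the level of either gene was not tested.

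Among the lysyl oxidases, Lox showed the largest change of any member. Lox (ENSMUSG00000024529.14, chromosome 18, minus strand), which crosslinks fibrillar collagen and elastin, had 50.2 and 40.7 TPM in the fusion libraries, against 0.840 and 1.30 TPM in the control libraries. Its mean was 45.4 ± 6.74 TPM in the fusion and 1.07 ± 0.323 TPM in the control libraries (SD, n = 2 each), a ratio of 42.5. The log2 change was 4.49 ± 0.42 (SE, adjusted p = 0.00367, limma), or 5.90 relative to the median, and 99.7% of tested genes had a lower change. Lox exceeded 92.1% and 88.0% of tested genes in the fusion libraries, against 4.57% and 7.07% in the control libraries. The low control ranks carry the same limit as those of Serpinh1. An antisense gene model overlaps Lox over 1207 bases. It had 2.87 TPM in fusion replicate 1 and was listed at 0 in fusion replicate 2 and in both control libraries.

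Loxl2 (ENSMUSG00000034205.16, chromosome 14, 69609068 to 69695834, plus strand), which acts on basement membrane collagen IV, had 7.54 and 6.14 TPM in the fusion libraries, against 0.867 and 0.675 TPM in the control libraries. The groups were apart, with a log2 change of 2.14 ± 0.39 (SE, adjusted p = 0.00861, limma), or 3.55 relative to the median. The antisense model Gm27177 covers 74219 bases of the Loxl2 locus and had 0.943 and 6.88 TPM in the fusion and 4.47 and 7.33 TPM in the control libraries, so it was not higher in the fusion group as Loxl2 was. Loxl1 (ENSMUSG00000032334.10, chromosome 9, 58287738 to 58313186, minus strand), best known for elastic fibre upkeep, had 0.934 and 2.79 TPM in the fusion libraries and 0.132 and 0.0401 TPM in the control libraries. It lay higher in both fusion libraries but reached 1 TPM in a single library and was not tested. With no filter its log2 change was 1.32 ± 0.43 (SE, adjusted p = 0.117, limma).

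Loxl3 (ENSMUSG00000000693.10, chromosome 6, 83034173 to 83052562, plus strand), needed in mice for palate and spine development, was the lysyl oxidase that fell. It had 0.907 and 1.45 TPM in the fusion libraries, against 6.29 and 7.37 TPM in the control libraries. The log2 change was -1.85 ± 0.41 (SE, adjusted p = 0.0150, limma), or -0.45 relative to the median, so its fall was close to that of genes at large. Htra2, a mitochondrial protease gene, overlaps the end of Loxl3 on the opposite strand over 1297 bases. Htra2 was at 0 and 0.0326 TPM in the fusion and 30.2 and 35.5 TPM in the control libraries. How far its reads enter the Loxl3 values was not tested. Loxl4 was at 0.00807 TPM or less in every library.

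The leading lysyl oxidase was Lox in both fusion libraries and Loxl3 in both control libraries. Lox made up 84.3% and 79.6% of the summed lysyl oxidase TPM in the fusion libraries, against 10.3% and 13.8% in the control libraries. Loxl3 made up 1.52% and 2.84% in the fusion libraries, against 77.4% and 78.6% in the control libraries. Loxl2 held a like share throughout, 12.7% and 12.03% in the fusion libraries and 10.7% and 7.20% in the control libraries. The family sum was 59.6 and 51.0 TPM in the fusion libraries, against 8.13 and 9.39 TPM in the control libraries. Divided by the summed Plod TPM of the same library, lysyl oxidases stood at 7.34 and 6.45 in the fusion libraries, against 0.250 and 0.179 in the control libraries. The sum over all 10 members was nonetheless similar, 81.3 and 73.2 TPM in the fusion libraries and 68.2 and 97.0 TPM in the control libraries, so the groups overlapped. With 2 libraries a group, an exact permutation test of such shares or ratios cannot reach the threshold of 0.05, so none was run.

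Median ratio scaling, quantile normalization and a GC and length correction raised the size of the rises and ended most of the calls of lower members. With mitochondrially encoded genes taken out of the TPM, all 4 lower members still passed. Adjusted p was then 0.0358 for Loxl3, 0.0234 for Plod1, 0.0119 for Plod3 and 0.00834 for P4ha1 (limma). After rescaling each library by its median ratio to the others, Lox, Loxl2 and Serpinh1 stayed higher, with log2 changes of 5.72, 3.23 and 3.76 (adjusted p = 0.0108, 0.0139 and 0.0112, limma). P4ha1 stayed lower at -1.48 (adjusted p = 0.0453, limma). Loxl3, Plod1 and Plod3 were at -0.58, -1.05 and -1.61 and did not pass (adjusted p = 0.310, 0.168 and 0.0511, limma). After rescaling, 14.3% of tested genes were called higher and 18.6% lower. With a correction for GC content and transcript length the same 4 genes passed, at 5.73 for Lox, 3.48 for Loxl2, 4.73 for Serpinh1 and -1.63 for P4ha1, with 13.4% of genes higher and 16.1% lower. The calls needed both control libraries, although the changes stayed about as large. Without control replicate 1 no member passed, with adjusted p from 0.0646 for Lox to 0.130 for Loxl2 among the 7 called members, and without control replicate 2 none passed either, from 0.0673 for Lox to 0.159 for Loxl2 (limma). Leaving out control replicate 1 or control replicate 2, the log2 change was 4.33 or 4.65 for Lox, 2.63 or 2.57 for Serpinh1 and -3.22 or -2.86 for P4ha1. Each of those fits takes the single remaining control library to spread like the fusion pair. With fusion replicate 1 left out, where mitochondrial RNA took its largest share, all 7 members passed in the same direction.

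**Figure D3:**
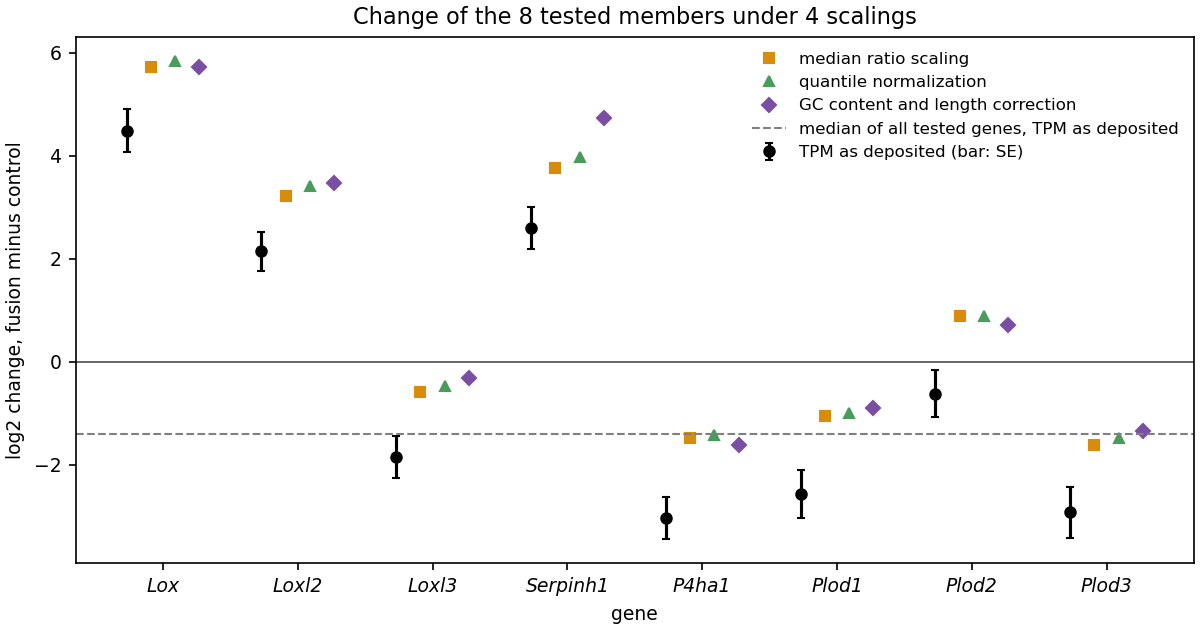
Log2 change, fusion minus control, of the 8 tested members for TPM as deposited (black, bars are SE) and under 3 other scalings, with a dashed line at the median of all tested genes for TPM as deposited (-1.41). Lox, Loxl2 and Serpinh1 lie above 0 under each of the 4, Loxl3, P4ha1, Plod1 and Plod3 lie below 0, and Plod2 lies on either side.

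Collagen chains, the substrates, were called in both directions. Of 24 tested chains from a list of 33, 7 were higher, 2 lower and 15 not past the threshold, and after rescaling 18 were higher and none lower (limma). Of the 7, Col2a1, Col5a2, Col8a2 and Col13a1 reached 1 TPM only in the fusion libraries. Col4a5 and Col18a1 did so in both fusion libraries and, among the controls, in replicate 2 only. All of these thus entered the test through the group where they are high, and Col1a1 alone did not. None of the 24 passed without control replicate 1 or without control replicate 2. The median of these chains was 1.17 in log2 change, which is 2.57 above that of all genes. Col1a1, the main chain of fibrillar collagen I, had 25.9 and 51.6 TPM in the fusion libraries, against 3.78 and 9.27 TPM in the control libraries (log2 change 2.42 ± 0.58, SE, adjusted p = 0.0192, limma). Col5a2, a chain of fibrillar collagen V, had 6.2 and 4.52 TPM in the fusion and 0.250 and 0.790 TPM in the control libraries. Col24a1 and Col9a3 were the lower chains, with log2 changes of -2.25 and -1.94. Col24a1 reached 1 TPM only in the control libraries. Summed fibrillar chains stood at 94.5 and 160 TPM in the fusion libraries, against 30.5 and 55.3 TPM in the control libraries. Per unit of these chains, lysyl hydroxylases were at 0.0859 and 0.0494 in the fusion libraries, against 1.07 and 0.948 in the control libraries. Lysyl oxidases per unit of chains were at 0.631 and 0.318 in the fusion and 0.267 and 0.170 in the control libraries. These groups did not overlap, yet the fusion replicates differed by more than the nearest fusion and control libraries did.

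Counts in the lists that follow are to be read against all tested genes. Of these, 51.3% were lower and 4.95% higher, or 18.6% and 14.3% after rescaling. A share near these is no result about a list. Among other collagen genes of the ER, of 11 tested genes from a list of 15, none was higher, 5 were lower and 6 did not pass, with a median of -0.93, or 0.48 relative to all genes. After rescaling 1 was higher and 1 lower. Fkbp14, a prolyl isomerase of collagen folding, had 1.59 and 0.893 TPM in the fusion libraries, against 18.9 and 23.9 TPM in the control libraries (log2 change -3.33 ± 0.44, SE, adjusted p = 0.00457, limma). Ppib, for cyclophilin B in the prolyl 3-hydroxylase complex, had 145 and 270 TPM in the fusion and 1094 and 1203 TPM in the control libraries. Colgalt1, which adds galactose to hydroxylysine, changed by -1.44 (adjusted p = 0.0340, limma), though correcting for GC content and length gave 0.33. Genes of collagen export had 6 of 12 lower and none higher, or 2 lower and 2 higher after rescaling. Mia3, for the TANGO1 receptor that loads procollagen into carriers, had 7.19 and 4.03 TPM in the fusion libraries, against 35.4 and 39.6 TPM in the control libraries. Sec13 and Sar1a, of the coat that buds from the ER, changed by -4.44 and -3.10.

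**Figure D4:**
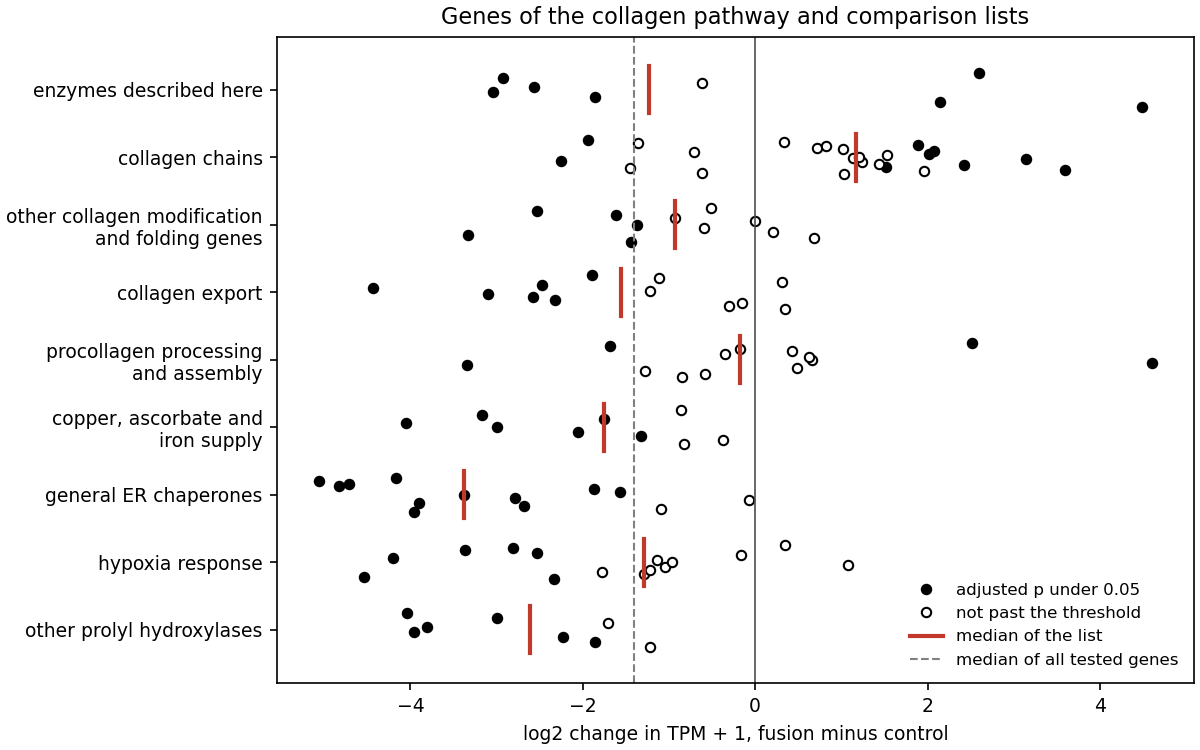
Log2 change, fusion minus control, of each tested gene of the enzyme set and of 8 lists (points, filled when adjusted p is under 0.05), with list medians in red and the median of all tested genes dashed; vertical scatter within a list only separates points. The collagen chains lie mostly right of 0 with a median of 1.17, the general ER chaperones lie at or left of 0 with a median of -3.37, and the enzymes spread from -3.04 to 4.49.

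Extracellular partners were mixed. Of 13 tested genes of procollagen processing and assembly from a list of 19, 2 were higher, 2 lower and 9 not past the threshold, or 4 higher and none lower after rescaling. Fn1, for fibronectin, which binds Lox, had 65.7 and 77.1 TPM in the fusion libraries, against 1.93 and 2.01 TPM in the control libraries (log2 change 4.61 ± 0.38, SE, adjusted p = 0.00367, limma). Tgm2, a transglutaminase that crosslinks matrix proteins by another chemistry, had 4.16 and 8.48 TPM in the fusion and 0 and 0.491 TPM in the control libraries. Tgm2 reached 1 TPM only in the fusion libraries and so entered the test through the group where it is high. Efemp2, for fibulin 4, which brings Lox to elastin, had 0.0610 and 6.41 TPM in the fusion libraries, against 24.4 and 30.8 TPM in the control libraries (log2 change -3.34 ± 0.96, SE, adjusted p = 0.0327, limma). Sparc, for a collagen-binding matricellular protein, changed by -1.69 (adjusted p = 0.0390, limma), and its direction turned to 0.06 with rescaling. Bmp1, whose protease cuts procollagen and the Lox proenzyme, had 1.62 and 2.94 TPM in the fusion and 5.49 and 8.35 TPM in the control libraries, a difference that did not pass (adjusted p = 0.0667, limma); it was named after its values were seen.

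Genes of cofactor supply are to be read against the 51.3% of all tested genes that were lower, or 18.6% after rescaling. Of 9 tested copper, ascorbate and iron genes, none was higher and 6 were lower, or 2 lower after rescaling. Slc31a1, the plasma membrane copper importer, had 2.49 and 11.6 TPM in the fusion libraries, against 50.5 and 53.4 TPM in the control libraries (adjusted p = 0.0159, limma). Slc23a2, an ascorbate transporter, had 1.44 and 0.833 TPM in the fusion and 6.82 and 8.92 TPM in the control libraries (log2 change -2.06 ± 0.43, SE, adjusted p = 0.0128, limma). Atp7a, the pump that loads copper onto lysyl oxidases, had 3.13 and 0.0306 TPM in the fusion libraries and 1.54 and 1.83 TPM in the control libraries, so the groups overlapped; it too was named after its values were seen.

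General ER chaperones lay opposite to Serpinh1. Of 13 tested, 11 were lower, none was higher and 2 did not pass, with a median of -3.37, or -1.97 relative to all genes, and 9 were lower after rescaling. Pdia6, a disulfide isomerase, had 13.3 and 21.7 TPM in the fusion libraries, against 538 and 671 TPM in the control libraries (log2 change -5.06 ± 0.39, SE, adjusted p = 0.00367, limma). Hypoxia response genes, which are known to include P4ha1, P4ha2, Plod2 and Lox in other settings, had 6 of 15 lower and none higher, or 4 lower and 2 higher after rescaling. Aldoa, for a glycolytic aldolase, had 15.8 and 18.1 TPM in the fusion libraries, against 380 and 456 TPM in the control libraries (log2 change -4.54 ± 0.33, SE, adjusted p = 0.00367, limma). Hydroxylases of other substrates had 6 of 8 lower and none higher, or 3 lower after rescaling. P4htm, an ER hydroxylase related to P4ha1 that acts on hypoxia-inducible factor, had 0.110 and 0 TPM in the fusion libraries, against 12.4 and 21.1 TPM in the control libraries. P4htm thus reached 1 TPM only in the control libraries and entered the test through the group where it is high. With control replicate 1 left out, the ER chaperones, hypoxia genes and other hydroxylases had 1, 3 and 2 lower genes. Leaving out control replicate 2 gave 2 lower genes in each of these lists. In the other lists at most 1 gene passed in either of those fits.

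Markers of other cell types differed in part between the groups. Fibroblast markers, which include Col1a1, had 5 of 14 tested genes higher and 1 lower, or 9 higher and none lower after rescaling. Of all tested genes, 4.95% were higher, or 14.3% after rescaling. Among the 5, Foxc1 and Foxd1 reached 1 TPM only in the fusion libraries. Mgp and Tbx18 did so in both fusion libraries and 1 control library. These genes thus entered the test through the group where they are high. The fibroblast markers, 16 genes in all, summed to 506 and 1010 TPM in the fusion and 63.3 and 172 TPM in the control libraries. Mgp, for a matrix protein, carried most of that, with 364 and 717 TPM in the fusion and 0 and 1.34 TPM in the control libraries. Without Mgp the sums were 142 and 292 TPM in the fusion and 63.3 and 170 TPM in the control libraries, which overlap. Ogn was listed at 0 in both fusion libraries and Twist1 in both control libraries. Lox, Loxl2 and Serpinh1 are also fibroblast genes in other tissues, and the part of such cells in their levels was not tested. Endothelial markers summed to 3.35 and 5.88 TPM in the fusion and 1.30 and 1.78 TPM in the control libraries, with Pecam1 at 0.240 TPM or less throughout. Pericyte and smooth muscle markers, which share Cspg4 with the precursors, summed to 23.5 and 148 TPM in the fusion and 105 and 287 TPM in the control libraries. Microglia and macrophage markers summed to 168 and 243 TPM in the fusion and 113 and 58.6 TPM in the control libraries. Tyrobp alone had 105 and 116 TPM in the fusion and 16.6 and 7.66 TPM in the control libraries. Of 9 tested, 3 were higher and 2 lower, or 4 higher and none lower after rescaling. P2ry12, a lower one, was listed at 0 in both fusion libraries. Neuron markers summed to 62.7 and 62.4 TPM in the fusion and 264 and 262 TPM in the control libraries. Of 8 tested, 5 were lower and none higher, or 2 lower and 1 higher after rescaling. Of all tested genes, 51.3% were lower, or 18.6% after rescaling. Astrocyte and radial glia markers had 4 of 8 tested lower and none higher, or 1 lower and 2 higher after rescaling. Their sums overlapped, with 9054 and 17252 TPM in the fusion and 9585 and 9547 TPM in the control libraries, mostly from Fabp7. Ependymal markers had 1 higher and 1 lower of 3.

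Markers of oligodendrocyte precursors were found in every library, with none of 12 listed at 0 in a whole group, and they summed to 484 and 640 TPM in the fusion libraries and 1538 and 1985 TPM in the control libraries. Of the 12, 8 were lower and none higher, or 2 lower and 1 higher after rescaling. Pdgfra itself had 123 and 192 TPM in the fusion libraries, against 337 and 429 TPM in the control libraries. The falls of Plod1, Plod3, Loxl3 and P4ha1 were seen in the same libraries as these lower precursor markers, and how far they go together was not tested.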

How the data were processed

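RNA-seq was done on sorted tdTomato-positive forebrain cells, amplified with a full-length single-cell cDNA kit and sequenced as paired reads of 100 bases, per the labels' protocols. A single TPM table of 54348 rows was deposited by the authors. The submitters' processing notes list Trimmomatic 0.39 and Salmon 1.8.0 with the builds GRCm38 and mm10. For the annotation and the step from transcripts to genes, those sources give nothing. TPM keeps no depth, so no counting interval is given, and an exact 0 is described as listed at 0. Each column's name gave its group and its replicate.

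From these values, log2(TPM + 1) was compared between 2 fusion and 2 control libraries with limma 3.58.1 in R 4.3.3 (trend, 2-sided, Benjamini-Hochberg over 12871 genes that reached 1 TPM in 2 or more libraries, threshold 0.05). The prior had 3.25 degrees of freedom and the residuals 2. GENCODE M21 (GRCm38) gave positions, length and GC content. The members and lists were chosen with earlier results of these data known. Named were all members and, from each list, at most 4 called genes with the largest change in each direction; exceptions are stated. Alternatives were other pseudocounts, filters, scalings, a GC and length correction (loess span 0.3), other limma settings, a replicate block and each library left out.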

Additional observations from a re-analysis of the deposited data

How the results depend on the processing

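The 3 higher and 4 lower members kept their direction under every alternative run, and Lox ranged from 3.05 to 5.85 in log2 change. The number of lower members was 1 with median ratio scaling, with quantile normalization and with the GC and length correction. Leaving out each library in turn gave 0 to 3 higher and 0 to 4 lower members, with no call left without either control library. Plod2, which was not called, turned to 0.89 with median ratio scaling, 0.90 with quantile normalization and 0.72 with the GC and length correction. P4hb turned to 0.14, 0.018 and 0.31 under the same settings, Sparc to 0.063 with median ratio scaling and 0.45 with the correction, and Colgalt1 to 0.33 with the correction. The median change of the tested members, -1.24, was -1.59 with a pseudocount of 0.1, -0.67 with 5, -0.13 with no filter (10 members), -1.59 at a mean of at least 5 TPM (6 members), -0.85 without mitochondrially encoded genes and -0.81 without these and ribosomal protein genes. It turned to 0.15 with median ratio scaling, 0.21 with quantile normalization and 0.20 with the correction. A shift of the median of all genes from -1.41 to between -0.15 and 0 is what those 3 settings make by construction.

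Over all genes, 637 were higher and 6606 lower. Higher genes numbered 353 with no filter, 405 at a mean of at least 5 TPM, 1846 with median ratio scaling, 1948 with quantile normalization, 978 without mitochondrially encoded genes, 973 without these and ribosomal protein genes, and 1721 with the correction. Lower genes numbered 2396, 1955 and 2068 with median ratio scaling, quantile normalization and the correction. With each library left out, 14 to 1084 genes were higher and 1025 to 7987 lower. The cause of these differences was not tested. With a replicate block, 642 genes were higher and 6978 lower, 3 members were higher and 4 lower as before, and Lox changed by 4.49 (adjusted p = 0.000407, limma). The numbers in the titles do not show a pairing, since deviations of same-numbered libraries had a correlation of -0.04 over genes. The limit of the data is 2 libraries a group of unknown depth, so the precision of levels below 1 TPM, such as Lox and Serpinh1 in a control library, cannot be stated.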
